A study of Apostichopus japonicus with 9 samples.

Results

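In the gut of Apostichopus japonicus, a farmed sea cucumber, 100 intestinal transcripts were selected because they stood lower in both diluted and concentrated sea water than in control sea water. Selection used the estimated counts of all 9 libraries, with a missing value taken as 0, divided by a size factor for each library (the median ratio to the geometric mean over the 12361 transcripts above 0 in every library). These values are called scaled counts below. Of 27269 gene models with an assigned read, 12545 had a mean scaled count of at least 10. In 270 of these the lowest control library lay above the highest of the 6 other libraries, and in 258 the means of the low- and high-salinity groups (plus 1) also lay within 2.5-fold of each other. The 100 with the largest margin, that is (lowest control library + 1)/(highest other library + 1), form the set. Every level and fold change of the set against the control is therefore a description, and no test is drawn from it.

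Sea cucumbers are marine echinoderms that hold little control over the salt content of their body fluid, so their cells meet most of a change in the surrounding water. Cells under such conditions adjust their volume by moving ions and small organic solutes across the membrane, and the intestine is both a digestive and an immune tissue in these animals. The study asked how intestinal gene expression differs at low and at high salinity. The groups were SD20 (salinity labelled 20), SD40 (labelled 40) and the control SD30 (labelled 30), with 3 libraries each. Per the series' design text, all animals were first held at 15 °C with daily feeding, were then assigned at random with 20 per group, and the water of SD20 and SD40 was moved to its final value by 2.5 every 6 h. The labels write the salinities with a percent sign, and the time spent at the final value, the age and the strain of the animals could not be taken from the labels. Per the labels' protocols each library was made from RNA of 3 animals pooled in equal amounts. Whether pools of a group came from separate tanks is not stated, so spread between libraries may be partly technical.

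Gene models carry AJAP identifiers, and the files do not pair these with gene names. Of the identifiers 0 occurred in RefSeq's gene table for this species, so no function, position or sequence is given for any transcript, and markers of the intestine or of other cell types could not be looked up. Gene model lengths were multiples of 3 in 93.5% of models and are mainly coding lengths.

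The control libraries differed in composition. Estimated counts summed to 2834168 to 4034952 in the 6 SD20 and SD40 libraries and to 3340018 to 4060892 in the SD30 libraries. The 10 most abundant transcripts took 23.98% to 42.3% of counts in the SD20 and SD40 libraries, against 44.6%, 62.5% and 37.0% in SD30 replicates 1 to 3. Size factors over library totals, relative to their geometric mean, were 1.33, 1.34 and 1.44 in SD20 and 1.15, 1.02 and 1.04 in SD40, against 0.551, 0.482 and 1.19 in SD30. SD30 replicates 1 and 2 thus stood apart: a count in them weighed more than in the other 7 libraries. Levels, ratios and fold changes below are by size factors, or by TMM scaling where fitted, unless another scale is named. The median fold change against SD30 was smaller by library totals. For AJAP19838 on that scale, the mean of both extremes against SD30 was -1.61, against -2.32 by TMM scaling (log2).

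The 100 transcripts were lower at both extremes by a moderate factor in most cases. The SD30 mean was 2.96 times the mean of the SD20 and SD40 group means at the median (a ratio of control over extremes), from 1.67 to 188 times. With library totals the median was 1.73 times. By size factors it was at least 2 times as high in 90 transcripts, at least 3 times in 48 and at least 5 times in 13. The median margin was 1.35, and it was 2 or more in 8 transcripts and under 1.2 in 15. With SD30 replicate 3 alone in place of the control mean the median ratio was 2.32, with replicate 1 alone 3.22 and with replicate 2 alone 2.60. In intestinal bulk RNA, fewer cells of a type and less RNA per cell cannot be told apart.

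**Figure D1:**
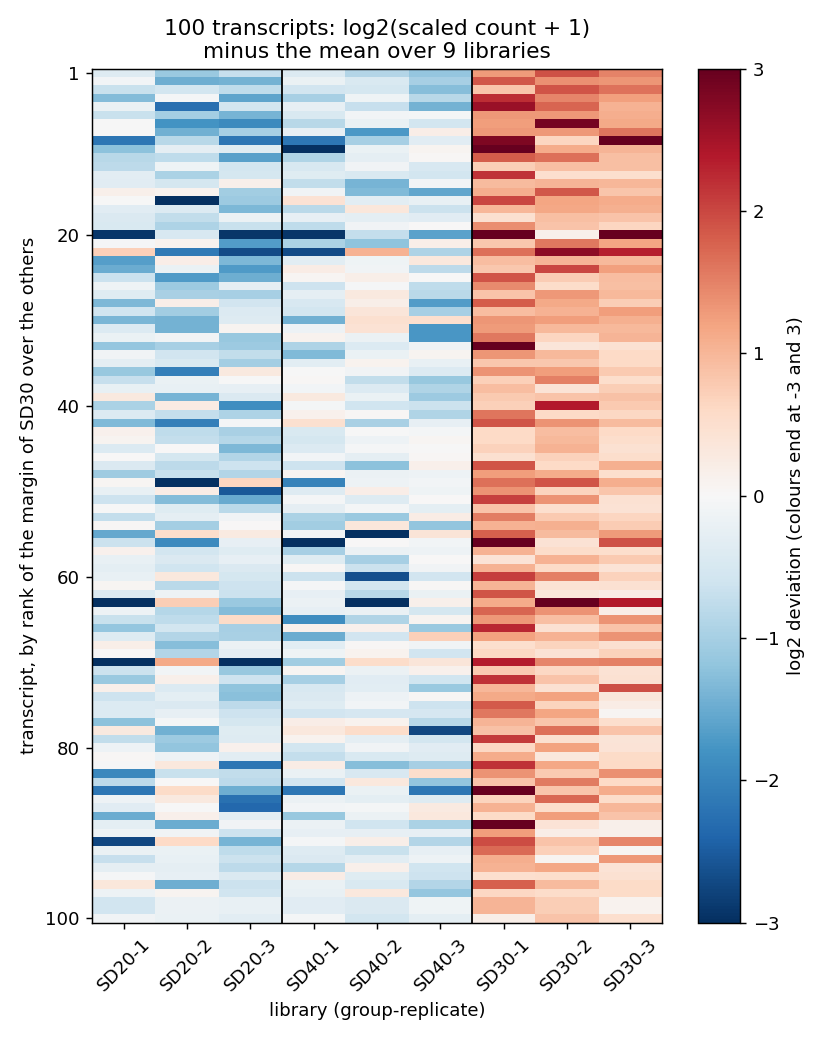
Each row is 1 of the 100 transcripts and each column 1 library, and colour gives log2(scaled count + 1) minus that transcript's mean over the 9 libraries. The 3 SD30 columns are above the mean almost throughout, as the selection required, and SD30 replicate 1 holds the highest value in 56 rows.

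Fitted log2 fold changes are given for the 96 members that passed edgeR's filter on low counts, in one fit of all 9 libraries over 14191 transcripts. The 4 members that failed the filter are AJAP12396, AJAP13689, AJAP13417 and AJAP20388, each with under 10 counts in at least 1 SD30 library. The members' median was -1.56 in SD20 against SD30, -1.38 in SD40 against SD30 and -1.48 in the mean of both against SD30. The same medians over all 14191 transcripts were 0.07, 0.11 and 0.09. Single members ranged from -3.31 to -0.72 in SD20 and from -3.11 to -0.57 in SD40, and both comparisons use the same 3 control libraries. The median for both extremes together was -1.37 without SD30 replicate 1, -1.63 without replicate 2 and -1.63 without replicate 3. These refits applied the filter anew and kept 96, 100 and 96 members, so the 3 medians are not over the same set. The rule placed every control library above the 6 others, so a negative median was fixed in each case.

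The first 10 transcripts by margin show what the set looks like at its clearest. The widest margin, 3.17, belonged to AJAP19838. This transcript (1455 bases) had scaled counts of 28.7, 17.0 and 23.2 in SD20 and 28.3, 20.4 and 16.5 in SD40, against 93.2, 145 and 109.5 in SD30. The SD30 libraries were all more than 3 times as high as any other library. Its log2 fold change was -2.29 (SE 0.44) in SD20 and -2.35 (SE 0.45) in SD40. Its estimated counts were whole numbers in every library, with 38, 24 and 36 in SD20, 38, 21 and 14 in SD40 and 50, 82 and 126 in SD30. AJAP08091 (1224 bases) had scaled counts of 72.1, 77.5 and 67.0 in SD20 and 76.3, 79.6 and 46.8 in SD40, against 204, 425 and 354 in SD30. The 6 libraries at the extremes kept within a narrow band, and SD30 replicate 1 was the lowest control. Its log2 fold change was -2.15 (SE 0.42) in SD20 and -2.23 (SE 0.42) in SD40.

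AJAP22841 was the most abundant of these 10. AJAP22841 (1611 bases) had scaled counts of 276, 651 and 226 in SD20 and 339.8, 628 and 382 in SD40, against 3179, 1894 and 1595 in SD30. It averaged 92.5 ± 54.0 FPKM in SD20, 84.3 ± 25.5 FPKM in SD40 and 269.8 ± 93.7 FPKM in the controls (the authors' FPKM, SD, n = 3 each). SD20 replicate 2 and SD40 replicate 2 were the highest libraries at the extremes, and in scaled counts both lay below the lowest control by more than 2-fold. In FPKM the distance was small, with 154.7 in SD20 replicate 2 against 162.7 in SD30 replicate 2. Its log2 fold change was -2.48 (SE 0.54) in SD20 and -2.24 (SE 0.54) in SD40. AJAP03715 (2307 bases) had scaled counts of 24.6, 8.79 and 9.13 in SD20 and 22.5, 18.6 and 12.6 in SD40, against 97.4, 68.4 and 66.3 in SD30. AJAP13090 (1755 bases) had scaled counts of 51.2, 11.6 and 40.0 in SD20 and 50.1, 36.4 and 21.7 in SD40, against 363, 203 and 123 in SD30. In both, SD30 replicate 1 was the highest library. SD20 and SD40 overlapped each other in both, while SD30 lay above them, as the selection required.

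Among the low-count members of the first 10, AJAP23480 and AJAP21817 had the most even control libraries. AJAP23480 (633 bases) had scaled counts of 17.3, 13.2 and 9.97 in SD20 and 19.9, 26.4 and 26.6 in SD40, against 70.7, 70.3 and 60.3 in SD30. The 3 controls lay close together, and SD20 was below SD40 in every library. Its log2 fold change was -2.27 (SE 0.43) in SD20 and -1.41 (SE 0.42) in SD40. AJAP21817 (1875 bases) had scaled counts of 15.2, 4.99 and 7.04 in SD20 and 12.6, 3.90 and 17.6 in SD40, against 38.9, 38.7 and 48.1 in SD30. SD20 and SD40 overlapped each other in this transcript, while both stayed below SD30. AJAP19042 (321 bases) had scaled counts of 24.2, 6.38 and 5.79 in SD20 and 13.4, 21.3 and 16.5 in SD40, against 59.6, 186 and 54.8 in SD30. SD30 replicate 2 stood well above the other 2 controls here.

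The remaining pair of the first 10 owed their control mean to 1 library. AJAP08522 (1416 bases) had scaled counts of 19.5, 39.0 and 36.1 in SD20 and 2.61, 40.9 and 49.5 in SD40, against 572, 102 and 95.7 in SD30. SD30 replicate 1 was more than 5 times as high as the other controls. In AJAP12396 (1560 bases) estimated counts were 0, 2.15, 0 in SD20 and 0, 1.30, 2.19 in SD40, against 16.2, 3.43, 193 in SD30 replicates 1 to 3. The count in SD30 replicate 2 was close to those at the extremes, so at this depth that library was not distinguishable from them.

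**Figure D2:**
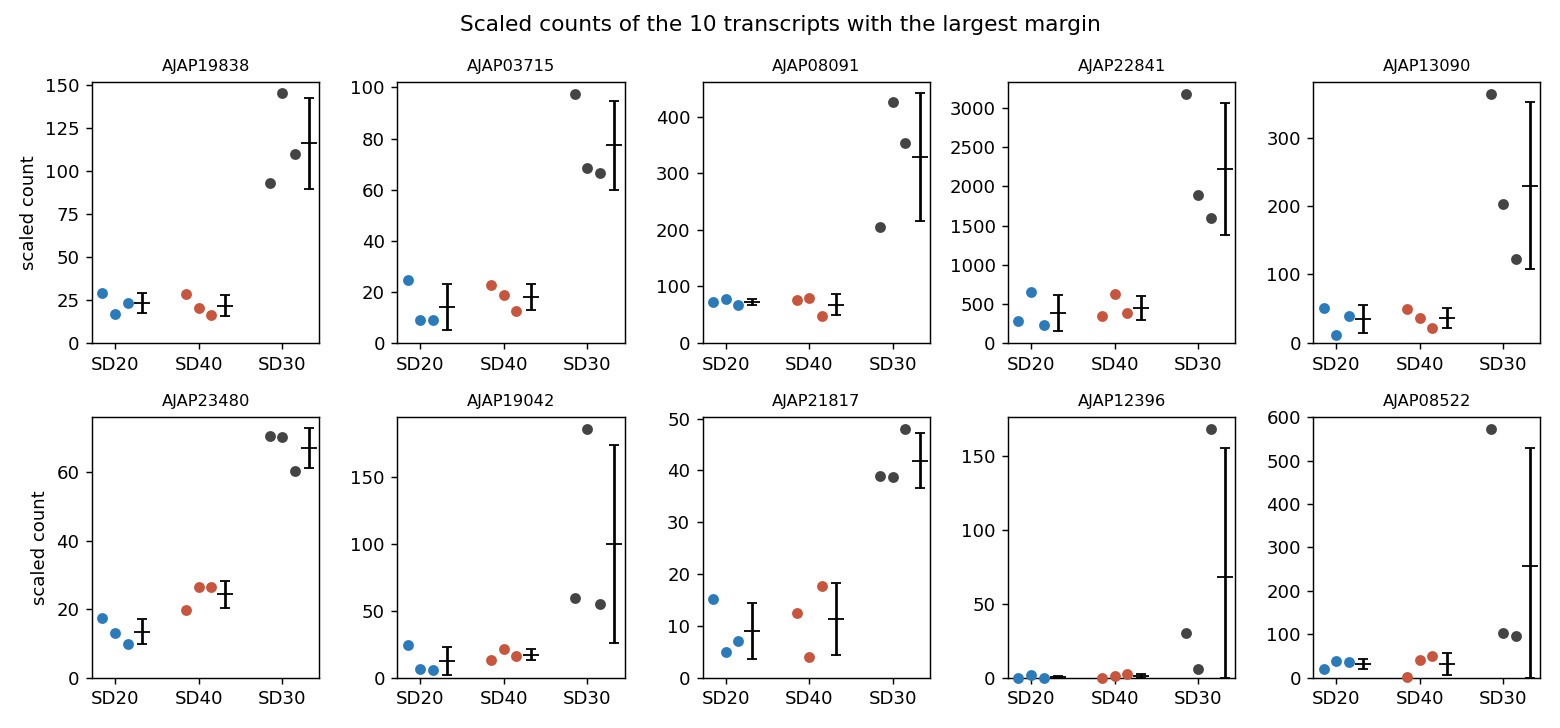
Points are the scaled counts of the 3 libraries of each group for the 10 transcripts with the largest margin, and the black marks are the mean ± SD (n = 3, bars stopped at 0). Every SD30 point lies above every SD20 and SD40 point, as the selection required, and AJAP08522 and AJAP12396 show the widest spread among controls.

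The set depended on how libraries were scaled. All 100 members had their lowest SD30 library above the 6 others on the scale used for selection, where 2.15% of the 12545 transcripts did so, and since the rule asked for this nothing is read from it. With library totals as the scale, 12 of the 100 did so (0.167% of the 12545). The same 12 did so in the authors' FPKM (0.159% of the 12545). With TMM scaling all 100 did so (1.93%), and with upper-quartile scaling all 100 did so (2.25%). With the total of all but the 100 most abundant transcripts as the scale, a setting added after the data were seen, 64 of the 100 did so (1.08%). The fitted median of the members with library totals was -0.73 for both extremes together, while the median of all 14191 transcripts moved to 0.75. With TMM scaling the 2 medians were -1.48 and 0.09. A change of scaling moves all transcripts nearly alike, so the distance between these medians is no sign of stability.

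On the scale of library totals, the SD40 mean lay below the SD30 mean in all 100 members and the SD20 mean in 94. Single control libraries differed on that scale. SD30 replicate 3 lay above the mean of the extremes in all 100 members, replicate 1 in 82 and replicate 2 in 55. The selection favoured high controls, and no share over all transcripts stands beside these counts. No support for the set is therefore read from them. The median ratio to the mean of the extremes was 2.24 for SD30 replicate 3, 1.47 for replicate 1 and 1.04 for replicate 2. The library in which a member peaked among the controls changed as well: with size factors it was SD30 replicate 1 for 56 members, replicate 2 for 32 and replicate 3 for 12, and with library totals it was replicate 1 for 20, replicate 2 for 2 and replicate 3 for 78.

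**Figure D3:**
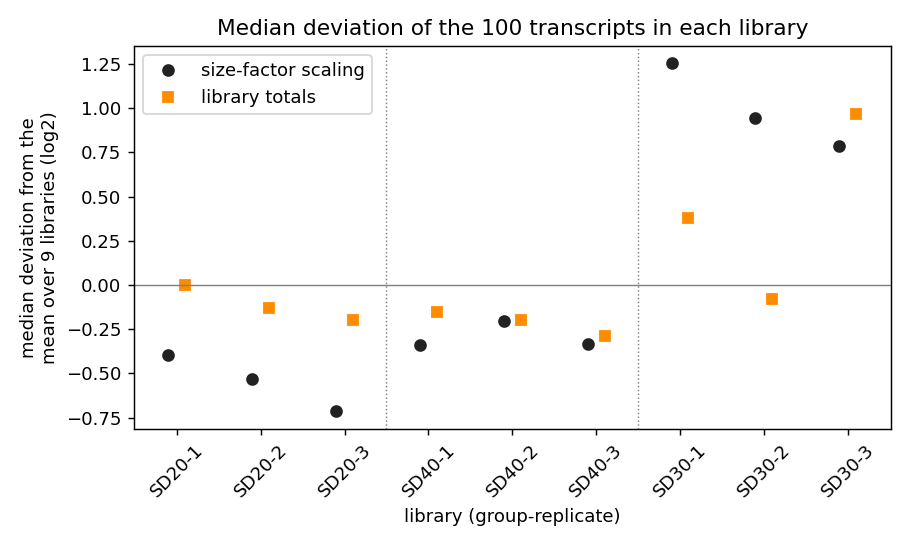
Points give the median over the 100 transcripts of the log2 deviation from each transcript's mean over 9 libraries, with size factors (circles) and with library totals (squares). SD30 replicates 1 and 2 stand at 1.25 and 0.94 with size factors and at 0.38 and -0.08 with library totals, while SD30 replicate 3 stands at 0.79 and 0.97.

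The 12 transcripts separated on both scales were AJAP19838, AJAP03715, AJAP08091, AJAP22841, AJAP13090, AJAP23480, AJAP19042 and AJAP12396 of the first 10, with AJAP17577, AJAP27093, AJAP22353 and AJAP26202. They were singled out after their values were seen, and their values by totals are given in CPM, the share of a library's estimated counts scaled to a common total. AJAP13090 had 19.7, 4.50 and 16.7 CPM in SD20 and 16.7, 10.8 and 6.50 in SD40, against 57.8, 28.2 and 42.4 in SD30. AJAP19838 had 11.0, 6.60 and 9.65 CPM in SD20 and 9.42, 6.02 and 4.94 in SD40, against 14.8, 20.2 and 37.7 in SD30. On the scale of totals the lowest SD30 library stood less clearly above the highest other library. The ratio of lowest control to highest other library was at most 1.44 among all members on that scale, against at most 3.24 with size factors. By totals this ratio was 1.01 in AJAP03715, 1.02 in AJAP26202 and AJAP19042, 1.03 in AJAP22353 and 1.04 in AJAP22841. It was 1.08 in AJAP08091, 1.09 in AJAP12396, 1.11 in AJAP27093 and 1.23 in AJAP23480. AJAP19838, AJAP13090 and AJAP17577 had ratios of 1.34, 1.43 and 1.44. AJAP27093 had 17.7, 11.0 and 10.2 CPM in SD20 and 22.8, 16.1 and 21.5 in SD40, against 47.4, 25.4 and 33.5 in SD30. AJAP22353 had 21.2, 12.9 and 10.2 CPM in SD20 and 17.1, 15.8 and 12.7 in SD40, against 32.9, 21.9 and 24.3 in SD30. AJAP27093 and AJAP22353 ranked 51 and 64 by margin, and in both SD30 replicate 2 was the lowest control by totals.

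**Figure D4:**
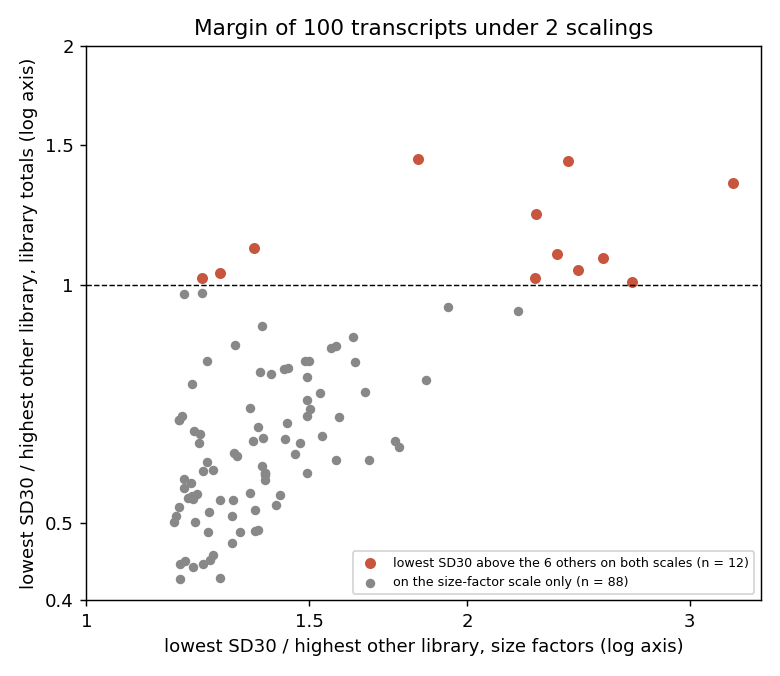
Each point is 1 transcript, with the ratio of the lowest SD30 library to the highest other library by size factors (horizontal, log axis) and by library totals (vertical, log axis). The 12 coloured points lie above the dashed line at a ratio of 1 on the vertical axis, and the other 88 lie below it.

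The members spanned a wide range of abundance. Their mean FPKM over the 9 libraries ran from 0.807 to 4679, with a median of 10.9, against 11.2 over the 12545 transcripts. Of the members 52 averaged 10 FPKM or more and 8 averaged 100 or more. The set took 3.73% to 6.25% of counts in the SD20 and SD40 libraries, against 7.02%, 6.42% and 8.89% in SD30. Nearly all of this came from AJAP26202. The other 99 members took 0.312% to 0.458% in the SD20 and SD40 libraries, against 0.529%, 0.403% and 0.771% in SD30, so that SD30 replicate 2 overlapped the extremes.

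AJAP26202 was the longest member, with 11460 bases. It had 3959, 4983, 2760.0 FPKM in SD20 and 3924, 4223, 4795 FPKM in SD40, against 5493, 5118, 6853 FPKM in SD30. SD20 and SD40 overlapped each other. SD30 lay above both, but SD20 replicate 2 and SD30 replicate 2 were nearly equal. Its log2 fold change was -1.57 (SE 0.35) in SD20 and -1.05 (SE 0.34) in SD40. The next in abundance was AJAP29363. It (759 bases) had scaled counts of 4663, 2277 and 5632 in SD20 and 3523, 4852 and 4078 in SD40, against 7912, 11929 and 6844 in SD30. In FPKM this transcript averaged 2233 ± 986 in SD20, 1702 ± 187 in SD40 and 2354 ± 739 in the controls (SD, n = 3 each), so on that scale the groups overlapped. AJAP24524, the shortest member with 270 bases, averaged 1229 ± 99.8 FPKM in SD20, 739 ± 45.4 FPKM in SD40 and 1185 ± 587 FPKM in SD30, and its SD20 mean was not below the control. AJAP04092 (1326 bases) had scaled counts of 516, 1246 and 727 in SD20 and 561, 878 and 739.7 in SD40, against 4997, 2019 and 1542 in SD30. Its SD30 replicate 1 was more than 2 times as high as the other controls.

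The levels at low and at high salinity were close to each other in most members, which the rule favoured. The larger group mean was within 1.5-fold of the smaller in 82 members. No share over all transcripts stands beside this count, so nothing is read from it. The 2.5-fold limit alone had left out 12 transcripts. A list made without that limit shared 94 of the 100 members. The SD20 mean lay below the SD40 mean in 69 members and above it in 31. The transcripts with the closest means included AJAP15067 and AJAP05598. AJAP15067 (1515 bases) had scaled counts of 95.3, 48.2 and 86.2 in SD20 and 67.7, 102 and 61.2 in SD40, against 281, 152 and 195 in SD30. AJAP05598 (909 bases) had scaled counts of 90.5, 108 and 76.3 in SD20 and 101, 67.0 and 103 in SD40, against 449, 153 and 140.3 in SD30. SD20 and SD40 overlapped in both. In AJAP12977 (672 bases), also among the closest, scaled counts averaged 36.2 ± 12.8 in SD20, 36.3 ± 20.2 in SD40 and 108 ± 36.1 in the controls (SD, n = 3 each). The largest difference allowed belonged to AJAP10548, at 46.9 ± 19.8 in SD20 and 114 ± 8.10 in SD40, with 266 ± 122 in SD30 (SD, n = 3 each). In edgeR the members' median for SD20 against SD40 was -0.20, and 68 of 96 lay below 0. With library totals it was 0.18, so its direction depended on the scaling. The median of all transcripts was -0.04 with TMM and 0.33 with totals.

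Control libraries differed among themselves to very different degrees. The coefficient of variation over the 3 SD30 libraries had a median of 31.4% in the members, against 51.1% over the 12545 transcripts, and the rule's demand for a high lowest control favours low values. It was under 20% in 28 members and over 80% in 7. The most even were AJAP21214, AJAP10193 and AJAP22458. AJAP10193 (1293 bases) had scaled counts of 15.7, 13.6 and 22.4 in SD20 and 11.5, 7.02 and 18.8 in SD40, against 39.5, 41.8 and 40.9 in SD30. AJAP22458 (1269 bases) had scaled counts of 48.8, 42.1 and 37.0 in SD20 and 58.7, 39 and 32.2 in SD40, against 72.3, 73.5 and 69.5 in SD30. AJAP21214 (1257 bases) had scaled counts of 45.7, 53.2 and 32.8 in SD20 and 42.9, 63.4 and 22.0 in SD40, against 77.9, 74.3 and 75.8 in SD30. The 3 SD30 libraries lay close together in each by size factors, but not in FPKM. In FPKM, SD30 replicates 1 to 3 had 9.81, 8.24 and 20.6 for AJAP21214, 4.84, 4.50 and 10.8 for AJAP10193 and 9.01, 8.07 and 18.7 for AJAP22458, so replicate 3 was more than 2 times as high as the others. By size factors, AJAP21214 and AJAP22458 had the smaller margins, 1.17 and 1.18.

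The steepest ratios came from transcripts that were below 10 counts in every SD20 and SD40 library. AJAP13689 (549 bases) had estimated counts of 0, 6.20 and 0 in SD20 and 0, 3.67 and 1.25 in SD40, against 124, 4.16 and 742 in SD30. AJAP20388 (423 bases) had estimated counts of 0, 8.07 and 1 in SD20 and 0, 3 and 0 in SD40, against 122, 4 and 10 in SD30. AJAP13417 (1077 bases) had estimated counts of 4, 5 and 5 in SD20 and 5, 6 and 6 in SD40, against 73, 6 and 13 in SD30. In each of these, and in AJAP12396, 1 or 2 control libraries carried most of the control counts and SD30 replicate 2 had under 10. AJAP20388 and AJAP13417 were high only in SD30 replicate 1, and AJAP13689 in SD30 replicates 1 and 3. Of all members 8 had a count of 0 in at least 1 library, never an SD30 one, since the rule left no room for that.

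Counting error limited many margins. In its lowest SD30 library a member had a median of 46 counts, 22 members had under 20 and 7 had under 10. In 19 of the 100 members the exact 95% Poisson interval of the lowest SD30 library, after scaling, lay above that of the highest other library. In the other 81 these intervals overlapped. Overlap alone does not settle whether the order of those 2 libraries was resolved, and the 2 counts were not tested against each other. Counts pooled over the 3 SD30 libraries lay above those pooled over the 6 others, interval against interval, in all 100, a direction that the selection fixed. These intervals cover counting error only and not the spread between libraries.

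Gene model length and the form of the counts did not enter the rule. The members' median length was 1131 bases, with the middle of the distribution from 666 to 1573 bases, against 1071 bases and 693 to 1632 bases over the 12545 transcripts. Spearman's rho between length and a transcript's deviation from its mean (log2(CPM + 1), library totals, across transcripts) was 0.162, -0.0119 and 0.219 in SD20 and 0.222, -0.191 and -0.149 in SD40, against -0.106, -0.137 and -0.0208 in SD30. The part of this length trend in the members' values was not tested. Estimated counts were whole numbers in every library (no decimals deposited) for 34 of the 100 members, against 43.7% of the 12545. In the other 66 reads may have been divided between similar gene models. AJAP10344 and AJAP16337, both 321 bases long, had the same estimated counts in all 9 libraries, from 9.5 to 17, so they cannot be counted as separate observations. The members did not move closely together within groups. Deviations from the group means over 9 libraries correlated at a median r of 0.0891 over all pairs of members, against -0.00227 over all pairs of the 12545 transcripts, with size factors and library depth shared by all. A correlation above 0.5 was found for 17.1% of pairs of members, against 14.4% of all pairs.

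In tests over the whole table, edgeR's quasi-likelihood test called 0 of 14191 transcripts at an adjusted p of 0.05 in SD20 against SD30, in SD40 against SD30 and in the mean of both against SD30. The lowest adjusted p was 0.370, 0.235 and 0.402. Thus 0 of 96 members were called, where percent called was 0 in each. At an unadjusted p under 0.05, 1738, 894 and 1518 transcripts were found in these 3 comparisons, 947, 402 and 899 of them lower. Of the 96 members 74, 61 and 83 were among the lower ones, where 6.67%, 2.83% and 6.34% of all transcripts were. The members were chosen on these same contrasts, so nothing is read from this count. DESeq2 called 118 transcripts in the mean of both against SD30, 97 of them lower (0.684%), and 32 of these 97 were members. It called 349 in SD20 against SD30 and 35 in SD40 against SD30. Of those, 263 and 24 were lower (1.85% and 0.169%), with 27 and 5 members among them. The members were chosen on these contrasts, so nothing is read from the DESeq2 member counts either. The percentages are of all 14191 transcripts fitted. DESeq2 set no adjusted p for part of them, so these could not be called. Low-count members such as AJAP21817 and AJAP25510 were among these in the mean of both against SD30. The difference between SD20 and SD40 was called by edgeR for 1 transcript (0.00705%), lower in SD20 and not a member. DESeq2 called it for 76, of which 50 were lower in SD20 (0.352%) and 0 were members. The rule bounded this difference in the members, so nothing is read from their absence among these calls.

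At the edge of the list, the last transcript inside and the first outside differed little. AJAP08144 (285 bases) had scaled counts of 12.1, 11.3 and 10.3 in SD20 and 12.7, 8.73 and 10.6 in SD40, against 14.9, 24.7 and 19.1 in SD30. Its margin was 1.165, and its lowest control rested on 8 counts. AJAP11553 (1815 bases), just outside with a margin of 1.159, had 539.7, 942 and 381 in SD20 and 827, 809 and 549.9 in SD40, against 3068, 2592 and 1092 in SD30. The transcript outside the list was more abundant and had the larger ratio of means, since the list was ordered by the closest pair of libraries.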

How the data were processed

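Poly(A) RNA of 9 intestinal pools was sequenced on a BGISEQ-500 instrument, per the labels' protocols. Each deposited file gives estimated counts for every detected gene model (expected counts, not normalized, per the file headers), the authors' FPKM and the model's length. The deposited FPKM matched values recomputed from counts, lengths and library totals within 5% for 92.0% of values with 10 or more counts. The submitters' processing notes name CASAVA 1.5. Neither labels nor headers name an aligner, a counter, a genome build or an annotation.

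Size factors, scaled counts and the selection were computed as described above. The estimated counts, rounded to whole numbers, were fitted with edgeR 4.0.16 in R 4.3.3 (filterByExpr, TMM, robust quasi-likelihood, all 9 libraries, salinity group as the only term). P-values were adjusted over all transcripts tested by the Benjamini-Hochberg method, and SEs are log2 fold changes over the root of the test's F. The fit was tested on simulated data. Alternatives were other scalings, filters, selection limits, the replicate number as a block and the omission of each library. DESeq2 1.42.0 on the same 14191 transcripts and limma 3.58.1 on log2 FPKM with a pseudocount of 1 or 0.1 were also run. DESeq2, at its default settings, left part of the transcripts without an adjusted p. Named transcripts were the first 10 by margin, the 4 next in FPKM, the 3 with the closest SD20 and SD40 means, the 3 with the most even controls, and the last inside and first outside the list. Others were chosen after their values were seen. The members, lists and tests were chosen with earlier results of these data known.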

Additional observations from a re-analysis of the deposited data

How the results depend on the processing

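The number of transcripts meeting the 3 conditions was 258, and it stayed within 1.5 times of that under TMM and upper-quartile scaling, other mean minimums, other windows and another pseudocount. It was 19 with library totals, 20 with FPKM and 131 with totals without the 100 most abundant transcripts, a setting added after seeing the data. The list made under these 3 settings shared 12, 12 and 56 members with the 100. Leaving out 1 library gave 284 to 932 such transcripts and 23 to 82 shared members. The lists shared 49 without SD40 replicate 2, 59 without SD40 replicate 3, 66 without SD20 replicate 1, and 59, 27 and 23 without SD30 replicates 1, 2 and 3. A smaller group passes the condition on non-overlap more easily, and the rule has no allowance for this.

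The members' median log2 fold change was negative against SD30 under every alternative run. The selection fixed or favoured this direction, so the sign is no evidence of stability. With library totals it was -0.65 in SD20, -0.77 in SD40 and -0.73 in the mean of both. With limma on log2(FPKM + 1) it was -0.62, -0.71 and -0.64, and on log2(FPKM + 0.1) -0.68, -0.82 and -0.76. With 10 counts or more in every library, which kept 61 members, it was -1.19, -1.12 and -1.21. Leaving out 1 library, which kept 96 or 100 members, gave -1.73 to -1.42 in SD20, -1.53 to -1.25 in SD40 and -1.65 to -1.37 in the mean of both. For SD20 against SD40 the median of -0.20 became 0.18 with library totals, 0.13 with limma on log2(FPKM + 1) and 0.16 on log2(FPKM + 0.1), and lay between -0.29 and -0.10 without 1 library. AJAP22458 reversed with limma, at 0.049 on log2(FPKM + 1) and 0.056 on log2(FPKM + 0.1), and AJAP08144 at 0.0043 on log2(FPKM + 0.1). The cause of these changes was not tested.

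Counts of called transcripts in SD20, in SD40 and in the mean of both against SD30 were 349, 35 and 118 with DESeq2 and 1, 1 and 8 with limma on log2(FPKM + 0.1), and 1 in SD40 with no filter on low counts, against 0 in edgeR and 0 to 0 without any 1 library. For SD20 against SD40 the 1 call became 0 with library totals, with limma on log2(FPKM + 1) and with the replicate block, 76 with DESeq2, and 0 without any 1 library. Deviations of same-numbered libraries correlated little (r from -0.0909 to 0.175). A weak shared effect would not show in these values, so whether the numbers pair the samples is not known. With the replicate block the members' median was -1.60 in SD20, -1.35 in SD40 and -1.49 in the mean of both, and -0.22 in SD20 against SD40. Depth limits the low-count members most.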
